A study of Mus musculus with 10 samples.

Results

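The RNA of 45 genes that copy the genome and supply its building blocks was followed in CD34- hematopoietic stem cells (HSCs) with and without a deletion of Regnase-1 (Reg1), an RNase that degrades mRNA and is encoded by Zc3h12a. The genes were chosen by symbol, and the transcripts of each were added up per gene, which gave 45 of the 33393 genes in the data. They comprise 8 origin licensing genes, the 6 subunits of the MCM2-7 helicase, 6 genes of helicase assembly, 9 subunits of polymerases and primase, 3 of RPA, 6 of the clamp and its loader, 2 that join Okazaki fragments, and 5 of nucleotide supply.

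Lin- Sca-1+ cKit+ CD34- Flt3- cells were sorted from the femur of individual C57BL/6 mice aged 8 weeks, and each library is 1 mouse. Both genotypes carry loxP-flanked Regnase-1 alleles on both chromosomes. Control mice are Reg1flox/flox without Cre, and Reg1Δ/Δ mice also carry Vav1-iCre, which is driven by Vav promoter elements and acts in all blood cells rather than in stem cells alone. By their titles, the 10 libraries form a set of 3 per genotype and a set of 2 per genotype, the latter titled LT-HSC.

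Before a cell divides, origins are licensed in G1 when the origin recognition complex (ORC), with Cdc6 and Cdt1, places the MCM2-7 helicase on DNA. At the start of S phase Cdc45 and the GINS complex join it, and polymerases, the sliding clamp PCNA and a supply of deoxynucleotides are needed for the forks to run. Most HSCs rest outside the cycle, and many of the genes of this machinery are switched on by E2F factors when cells leave rest.

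Values are TPM, the share of each transcript among all transcripts of a library, and are scaled by transcript length, so that levels of different transcripts can be compared. The sum of a gene mixes coding and non-coding transcripts in shares that differ between genes and library sets, which limits a comparison of levels between genes. TPM adds up to 1000000 in each library and keeps no read numbers, so the depth is unknown. Fold changes are log2 differences of TPM + 1, labelled Reg1Δ/Δ minus control, from limma with the library set as a term. A gene is called at a Benjamini-Hochberg FDR under 0.05 over the 12874 genes tested, all 45 members among them.

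Zc3h12a itself went against the labels. The controls had 1.83, 1.28 and 1.60 TPM in the set of 3 and 1.48 and 6.07 TPM in the set of 2. The libraries labelled Reg1Δ/Δ had 3.54, 2.08 and 2.51 TPM and 10.3 and 8.52 TPM, with a log2 fold change of 0.83 (SE 0.28, limma FDR = 0.0314). It was 1.73 after quantile normalization, and the call was lost with the replicate block (limma FDR = 0.0505). A TPM per gene does not show which exons the reads came from, so RNA without the deleted part would count too, and whether it did was not tested. An exchange of labels was not tested either. Directions are therefore given by label throughout.

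Letters of the E2F consensus were searched in the promoters, since they are what many replication genes share. RefSeq windows from 250 bases before to 50 bases after the start of the gene (GRCm38.p6) were read on both strands for the spellings TTTCCCGC, TTTCGCGC, TTTGCCGC and TTTGGCGC. Of the 38 members with a window, 15 held at least 1 of them (39.5%), against 704 of 27025 genes (2.60%). The members Gins1, Gins2, Gins4, Mcm4, Pole, Prim2 and Rfc2 had no window. Among the called members with a window, 6 of 21 held the letters (28.6%), and among those not called 9 of 17 (52.9%). A match is a run of letters and not a measured site, and nothing is drawn from it about E2F. The 6 called members with a match are shown with up to 10 bases on each side, followed by 2 that were not called, Orc1 and Mcm3. Each is written 5′ to 3′ on the strand of its gene, with the consensus or its reverse complement in capitals. They lie at chr11:98908003-98908030 (+) for Cdc6, chr8:122568037-122568064 (+) for Cdt1, chr8:75109346-75109373 (+) for Mcm5 and chr1:128359735-128359762 (-) for Mcm6. The others are chr5:138171850-138171877 (-) for Mcm7, chr12:69228163-69228190 (-) for Pole2, chr4:108579417-108579444 (+) for Orc1 and chr1:20820276-20820303 (-) for Mcm3.
Cdc6: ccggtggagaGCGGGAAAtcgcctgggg
Cdt1: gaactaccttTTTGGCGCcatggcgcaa
Mcm5: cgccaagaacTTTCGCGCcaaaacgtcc
Mcm6: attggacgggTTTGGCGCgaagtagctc
Mcm7: ggtgacgacgTTTCGCGCcaatttcggt
Pole2: gtcggcggtgGCGCCAAAtcgcgaacat
Orc1: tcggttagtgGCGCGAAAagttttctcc
Mcm3: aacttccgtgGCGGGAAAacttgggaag
Mcm6 held 3 matches in its window, and Mcm3, Mcm5, Mcm7 and Rfc3 held 2 each. Those of Mcm5 overlap, so that its capitals run on into a second match on the other strand.

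Of the 45 members, 23 were higher in the libraries labelled Reg1Δ/Δ (51.1%), none was lower and 22 were not called by limma. In bulk RNA, fewer or more cells of a type and less or more RNA per cell cannot be told apart. At an unadjusted p under 0.05, 26 were higher and 1, Rfc1, was lower, and no share of all genes is given for that count. Over all genes tested the call went the other way more often, with 15.0% higher (1933 genes) and 37.9% lower (4880). That split depended on the scaling, since quantile normalization called 3861 genes higher and 2636 lower and median-of-ratios scaling 3973 and 3425. The 7294 genes whose mean TPM lay between that of the lowest member (11.4) and the highest (364) had 21.1% higher and 29.8% lower. The median log2 fold change of the members was 0.33, that of the genes of like level -0.08 and that of all genes -0.25. A log2 fold change above 0 was found in 40 members, against 35.9% of all genes and 45.1% of those of like level. In 22 members every library labelled Reg1Δ/Δ lay above every control of its set, and in none did every one lie below. The same separation held for 12.7% of all genes upward and 31.4% downward, and for 18.1% and 24.7% of those of like level. The 45 members together made up 4498 ± 217 TPM in the controls and 5876 ± 438 TPM in the libraries labelled Reg1Δ/Δ of the set of 3 (SD, n = 3). The sums in the set of 2 were 4449 ± 229.5 TPM and 5292 ± 322 TPM (SD, n = 2). The count of called members depended on single libraries and on the scaling. Among the libraries labelled Reg1Δ/Δ, leaving out replicate 3 of the set of 3 left 13 called, and leaving out replicate 1 of either set left 15. Median-of-ratios scaling gave 39, the fit without the library set 9 and the set of 2 alone 1. Median-of-ratios scaling called all 23 and every other member except Gins2, Orc3, Orc4, Rfc1, Pola1 and Pold1. Quantile normalization kept 16 of the 23, without Mcm5, Mcm6, Mcm7, Rfc4, Pold2, Rpa2 and Rrm2, and added Mcm10, Gins3, Orc1 and Pole. Both scalings moved the median of all genes, quantile by 0.40 and median-of-ratios by 0.30, and the median of the members lay 0.25 and 0.63 above it, against 0.59 without them.

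**Figure D1:**
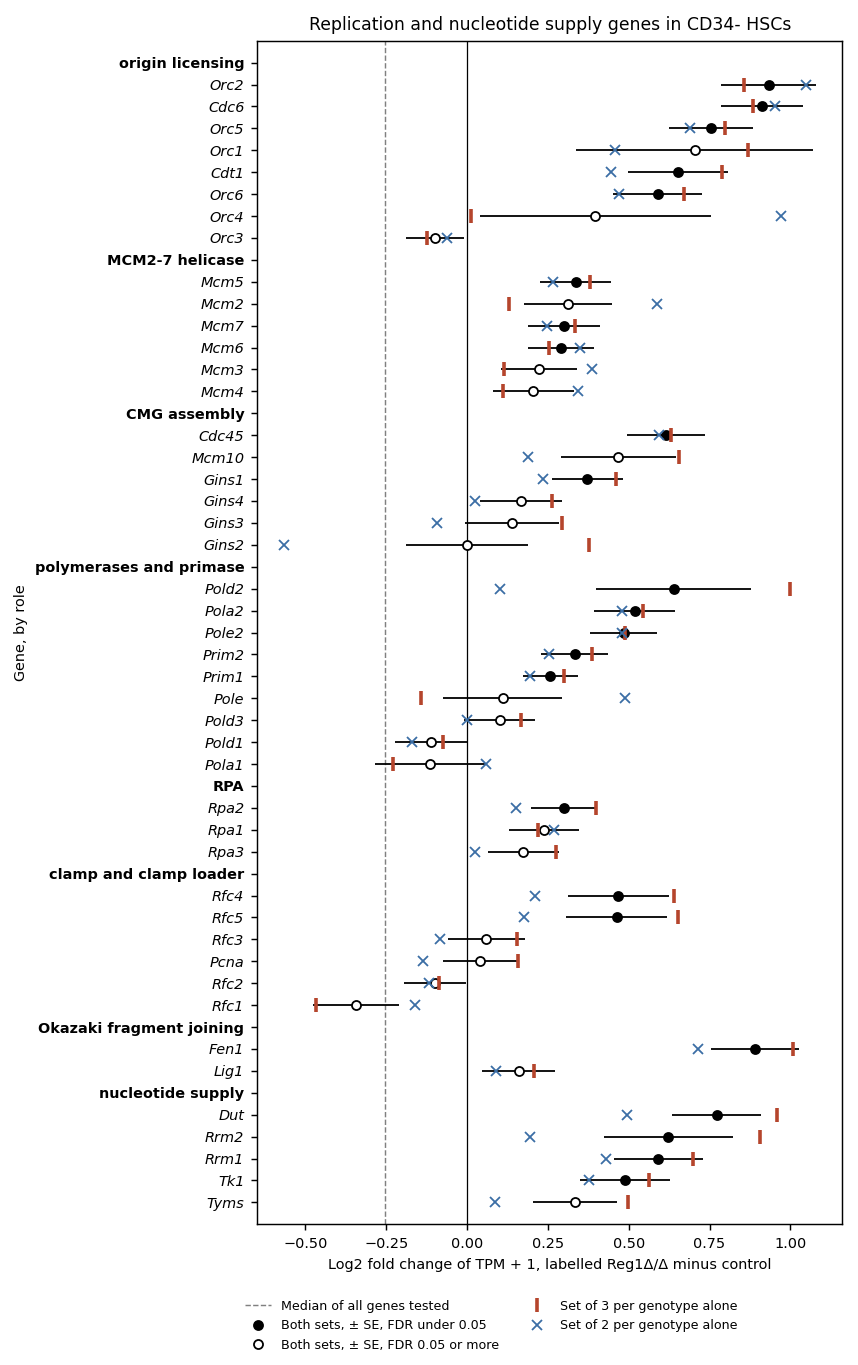
Log2 fold change of TPM + 1 (labelled Reg1Δ/Δ minus control) of each of the 45 members, by role. Circles with bars give both sets with the standard error, filled where the limma FDR is under 0.05, and ticks and crosses give each set alone. The dashed line is the median of all genes tested (-0.25). Orc2, Cdc6 and Fen1 lie farthest to the right, Rfc1 farthest to the left, and 40 of the 45 lie above 0.

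The genes that license origins had the highest median of any role. Of 8, 5 were higher (Orc2, Cdc6, Orc5, Cdt1 and Orc6), and their median log2 fold change was 0.68. Orc2, an ORC subunit (chr1:58462771-58505109, minus strand), had 62.5, 55.0 and 58.5 TPM in the controls of the set of 3 against 81.9, 137 and 109 TPM in those labelled Reg1Δ/Δ. Its values in the set of 2 were 40.8 and 32.7 TPM against 79.2 and 74.2 TPM. The groups did not overlap in either set, and the log2 fold change was 0.93 (SE 0.15, limma FDR = 0.000514). It was the single member called in the set of 2 alone, where 3.51% of all genes were called higher.

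Cdc6, the ATPase that loads the helicase together with ORC (chr11:98907801-98923940, plus strand), had 34.8, 26.2 and 37.8 TPM in the controls and 58.4, 57.3 and 67.7 TPM in the libraries labelled Reg1Δ/Δ of the set of 3. The set of 2 had 35.2 and 28.4 TPM against 65.4 and 59.0 TPM. Its control level was thus alike in both sets, and so was the rise, with a log2 fold change of 0.91 (SE 0.13, limma FDR = 0.000244). Orc5, another ORC subunit (chr5:22486485-22550429, minus strand), had 55.1, 43.6 and 65.0 TPM against 90.4, 99.1 and 93.7 TPM in the set of 3. In the other set it had 32.1 and 40.0 TPM against 63.2 and 54.1 TPM. All libraries labelled Reg1Δ/Δ were above the controls of their set (log2 fold change 0.75, SE 0.13, limma FDR = 0.000869).

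Cdt1 brings the MCM2-7 ring to ORC and is destroyed once S phase begins. At chr8:122568015-122573554 on the plus strand, it had 55.3, 33.6 and 49.0 TPM in the controls and 72.0, 72.5 and 92.3 TPM in the libraries labelled Reg1Δ/Δ of the set of 3. Its control values in the set of 2 were 68.7 and 68.5 TPM, and those labelled Reg1Δ/Δ 96.5 and 91.2 TPM. Neither set showed an overlap (log2 fold change 0.65, SE 0.15, limma FDR = 0.00582). Orc6 was higher as well (0.59, limma FDR = 0.00526), while Orc1, Orc4 and Orc3 were not called at log2 fold changes of 0.70, 0.40 and -0.10. The value of Orc3 was 0.25 after median-of-ratios scaling. The spread of Orc1 lay largely in 1 short transcript, given with the transcripts.

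The 6 subunits of the MCM2-7 helicase had log2 fold changes between 0.20 and 0.34 with a median of 0.30, and Mcm5, Mcm6 and Mcm7 were called (limma FDR = 0.0285, 0.0352 and 0.0436). Leaving out 1 library at a time kept the call of Mcm7 in 1 of 10 fits, that of Mcm6 in 2 and that of Mcm5 in 5. Mcm2 (chr6:88883474-88898780, minus strand) had 341, 261 and 323 TPM in the controls and 315, 309 and 389 TPM in the libraries labelled Reg1Δ/Δ of the set of 3, which overlapped. In the set of 2 it had 112 and 118 TPM against 185 and 162 TPM, which did not. Its log2 fold change was 0.31 (SE 0.14, 95% confidence interval 0.01 to 0.62) and was not called (limma FDR = 0.0791). Mcm3 and Mcm4, at 0.22 and 0.20, were not called either.

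Among the genes that turn the loaded ring into a working helicase, Cdc45 and Gins1 were higher and 4 of 6 were not called. Cdc45, a subunit of the active helicase (chr16:18780447-18811987, minus strand), had 31.3, 23.3 and 33.8 TPM against 43.5, 43.8 and 49.6 TPM in the set of 3. Its values in the set of 2 were 32.3 and 37.9 TPM against 55.9 and 50.9 TPM. The rise was alike in both sets and free of overlap (log2 fold change 0.62, SE 0.12, limma FDR = 0.00209). Gins1 rose by a log2 fold change of 0.37 (limma FDR = 0.0177). The other GINS subunits were not called, with log2 fold changes of 0.00 for Gins2, 0.14 for Gins3 and 0.17 for Gins4, and their difference from Gins1 was not tested. Gins3 was called after quantile normalization (0.70, limma FDR = 0.0033), and Gins3 and Gins4 after median-of-ratios scaling (0.46 and 0.51, limma FDR = 0.0139 and 0.0058). Mcm10, which helps to start the helicase, separated in both sets but lay just outside the threshold (0.47, limma FDR = 0.0501). It was 0.75 after quantile normalization (limma FDR = 0.0154) and 0.09 on the longest coding transcript (limma FDR = 0.632).

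Of the 9 polymerase and primase genes, 5 were higher. Polymerase alpha-primase makes the first stretch of each new strand, and its accessory subunit Pola2 (0.52, limma FDR = 0.00657) and the primase subunits Prim2 (0.33) and Prim1 (0.26) were called, while the catalytic subunit Pola1 had a log2 fold change of -0.11 (95% confidence interval -0.50 to 0.27). In polymerase delta and epsilon, the accessory subunits Pold2 (0.64, limma FDR = 0.0477) and Pole2 (0.48, limma FDR = 0.00316) were called, and the catalytic subunits Pold1 (-0.11, 95% confidence interval -0.36 to 0.14) and Pole (0.11, -0.30 to 0.52) were not. The values of Pola1 and Pold1 turned positive under median-of-ratios scaling, at 0.22 and 0.24, and Pole was called higher under quantile normalization (0.47, limma FDR = 0.0327) and median-of-ratios scaling (0.45, limma FDR = 0.0463). Not all accessory subunits were called, as Pold3 was at 0.10, and whether accessory and catalytic subunits differ was not tested. Pold2 overlapped in the set of 2 and kept its call in 2 of 10 fits without 1 library, and Prim1 (limma FDR = 0.0288) kept its own in 3. Both lost it with the replicate block (limma FDR = 0.0664 and 0.0678).

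RPA coats single-stranded DNA at the fork. Rpa2 was higher (0.30, limma FDR = 0.0338), but lost its call with the replicate block (limma FDR = 0.0666) and kept it in 4 of 10 fits without 1 library. Rpa1 separated in both sets without passing the threshold (0.24, limma FDR = 0.0902), and Rpa3 had a log2 fold change of 0.17 (limma FDR = 0.207). The clamp and its loader had a median log2 fold change of 0.05, the lowest of any role. PCNA, which holds the polymerases on DNA, was the member with the highest mean TPM over all libraries and in the controls of the set of 2, while Mcm2 and Mcm6 were above it in those of the set of 3. These ranks are of sums over transcripts. In the controls of the set of 3, protein-coding transcripts held a mean of 32.4% of the sum for Mcm2, 68.4% for Mcm6 and 48.3% for Pcna. Pcna (chr2:132249162-132253314, minus strand) had 249, 336 and 293 TPM in the controls and 337, 316 and 319 TPM in the libraries labelled Reg1Δ/Δ of the set of 3. The values in the set of 2 were 501 and 439 TPM against 444 and 411 TPM. Both sets overlapped, and the log2 fold change was 0.04 (SE 0.12, 95% confidence interval -0.22 to 0.30, limma FDR = 0.789). It was -0.11 after quantile normalization and was called higher after median-of-ratios scaling (0.39, limma FDR = 0.0332). Of the loader subunits, Rfc4 and Rfc5 were higher (0.47 and 0.46, limma FDR = 0.0295 and 0.0297) with an overlap in the set of 2, and kept their call in 2 and 5 of 10 fits without 1 library. Rfc2, Rfc3 and Rfc1 were not called. Protein-coding transcripts held a mean of 1.89% of the Rfc2 sum in the controls of the set of 3 and 8.16% in those of the set of 2. For Rfc3 they held 8.80% and 96.2%. Rfc1, the large subunit, was the member with the lowest log2 fold change (-0.34, limma FDR = 0.0524), and it was 0.00 after median-of-ratios scaling.

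Fen1, the nuclease that trims the flaps of Okazaki fragments, was among the 3 largest rises. At chr19:10199132-10204169 on the minus strand, it had 73.1, 53.0 and 74.0 TPM in the controls and 129, 123 and 152 TPM in the libraries labelled Reg1Δ/Δ of the set of 3. The set of 2 had 96.1 and 90.1 TPM against 170.0 and 138 TPM. No control reached a library labelled Reg1Δ/Δ (log2 fold change 0.89, SE 0.14, limma FDR = 0.000454). Lig1, the ligase that seals the trimmed fragments, was not called (0.16, 95% confidence interval -0.09 to 0.41).

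**Figure D2:**
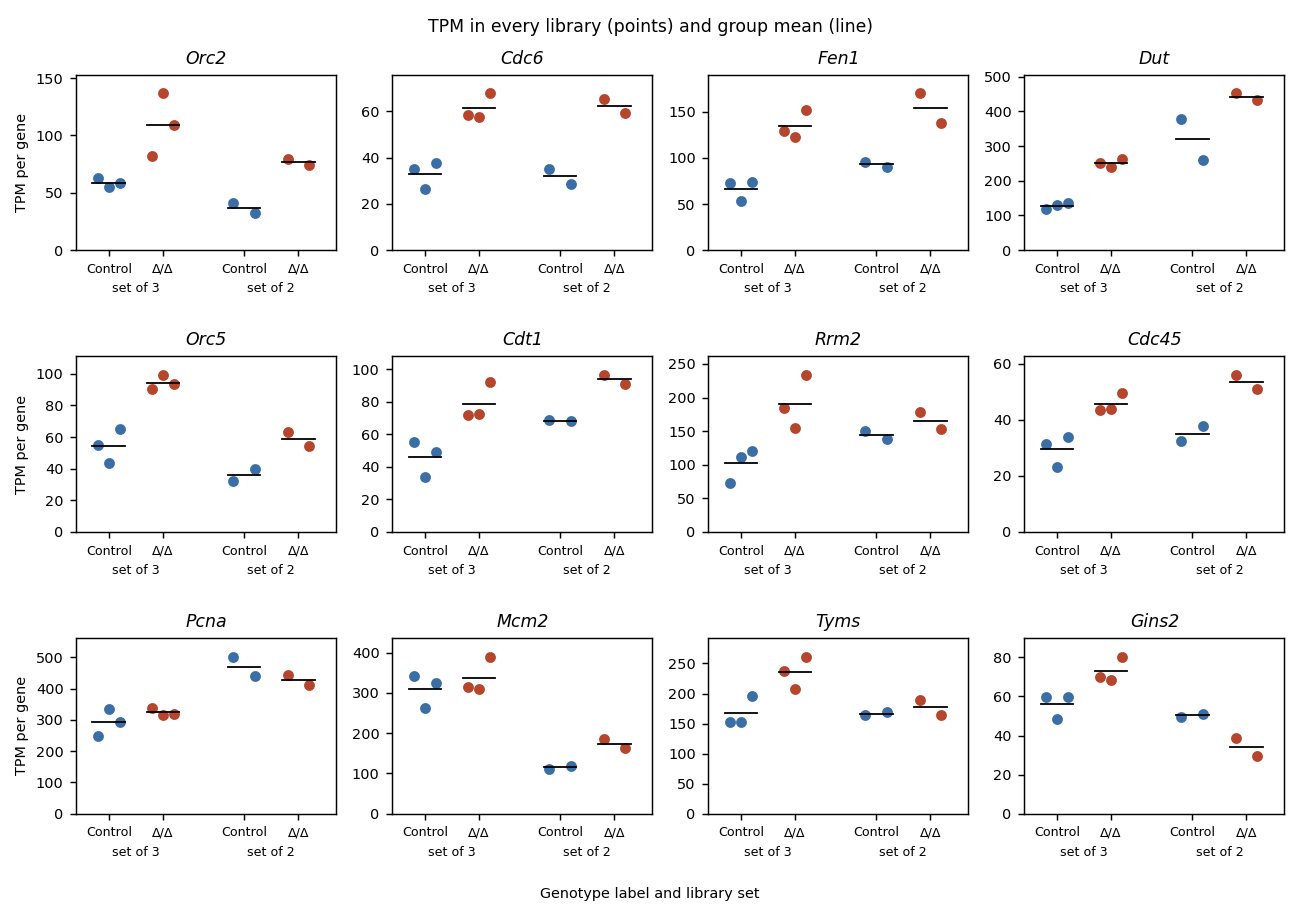
TPM of 12 members in every library. Each point is a library, blue for controls and red for those labelled Reg1Δ/Δ, with the set of 3 on the left and the set of 2 on the right of each panel, and the line is the group mean. The groups of the 8 members from Orc2 to Cdc45 do not overlap in either set, those of Pcna overlap in both, and Gins2 is higher in the first set and lower in the second.

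Of the 5 members that supply nucleotides 4 were higher, all 5 had a log2 fold change above 0 and the median was 0.59. Dut removes dUTP so that uracil is not built into DNA. At chr2:125247190-125258608 on the plus strand, it had 119.8, 129.6 and 137 TPM in the controls and 252, 239 and 261 TPM in the libraries labelled Reg1Δ/Δ of the set of 3. In the set of 2, Dut had 379 and 259.6 TPM against 452 and 433 TPM. The sets differed in level more than the genotypes did, and within each set the groups stayed apart (log2 fold change 0.77, SE 0.14, limma FDR = 0.00114).

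Ribonucleotide reductase turns ribonucleotides into deoxyribonucleotides, and the small subunit it uses in S phase is Rrm2. Rrm2 (chr12:24708241-24714146, plus strand) had 73.3, 112 and 121 TPM against 184, 155 and 233 TPM in the set of 3. The values in the other set were 150.3 and 138 TPM against 179 and 153 TPM. The groups did not overlap, although they lay close together in the set of 2 (log2 fold change 0.62, SE 0.20, limma FDR = 0.0252). The large subunit Rrm1 rose by 0.59 (limma FDR = 0.00521), and Tk1, the thymidine kinase of cycling cells, by 0.49 (limma FDR = 0.0149).

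Tyms, which makes dTMP, lay just outside the threshold. At chr5:30058202-30073617 on the minus strand, it had 153, 152 and 196 TPM in the controls and 238, 208 and 261 TPM in the libraries labelled Reg1Δ/Δ of the set of 3, and was called there (limma FDR = 0.0405). The set of 2 had 164 and 169 TPM against 190.0 and 165 TPM, which overlapped. Protein-coding transcripts held a mean of only 13.6% of these sums in the controls and 30.0% in those labelled Reg1Δ/Δ. In the set of 3 they held 60.2% and 55.7%. Over both sets the log2 fold change of Tyms was 0.33 (SE 0.13, limma FDR = 0.0555). It was called on the longest coding transcript (limma FDR = 0.0344) and after median-of-ratios scaling (0.69, limma FDR = 0.0018), but not after quantile normalization (0.21, limma FDR = 0.206) or with the replicate block (limma FDR = 0.0739).

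The sets were also fitted one by one, since each holds both genotypes. The set of 3 alone called 19 members higher and 1, Rfc1, lower, where 12.0% of all genes were higher and 38.3% lower. Besides Orc2, none was called in the set of 2 alone, where 12.3% of all genes were lower. At an unadjusted p under 0.05 the set of 2 gave 13 members higher and 1 lower. No share of all genes is given for this count, as the 12.3% is at the FDR. The log2 fold change was above 0 in 39 members in the set of 3 and in 37 in the set of 2, with medians of 0.38 and 0.25. The medians of all genes were -0.33 and -0.12. Tested as an interaction of genotype and set, no member differed between the sets at an FDR under 0.05 by limma, and 1 did at an unadjusted p under 0.05. Among all genes 0.443% differed at that FDR and 12.5% at the unadjusted p. The member was Gins2, named here after its values were seen. It had 59.7, 48.5 and 59.9 TPM against 70.2, 68.5 and 80.3 TPM in the set of 3, and 49.7 and 51.1 TPM against 38.6 and 29.4 TPM in the set of 2. Every library labelled Reg1Δ/Δ was above the controls in the first and below them in the second (interaction FDR = 0.173 by limma).

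The transcripts behind the sums differed between the sets for both genotypes. Protein-coding transcripts held 58.6% ± 0.5 of the summed member TPM in the controls of the set of 3 and 85.6% ± 1.3 in those of the set of 2 (SD, n = 3 and 2). In the libraries labelled Reg1Δ/Δ they held 61.4% ± 0.9 and 89.6% ± 0.2. Transcripts under 1000 bases made up 49.4% and 19.3% of the member TPM in the controls of the sets. Of the 45 members, 13 were under 50% coding in the controls of the set of 3 and 4 in those of the set of 2. The kit that made the cDNA is given in one version by the labels and in another by the study's methods, with no word on which set had which.

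**Figure D3:**
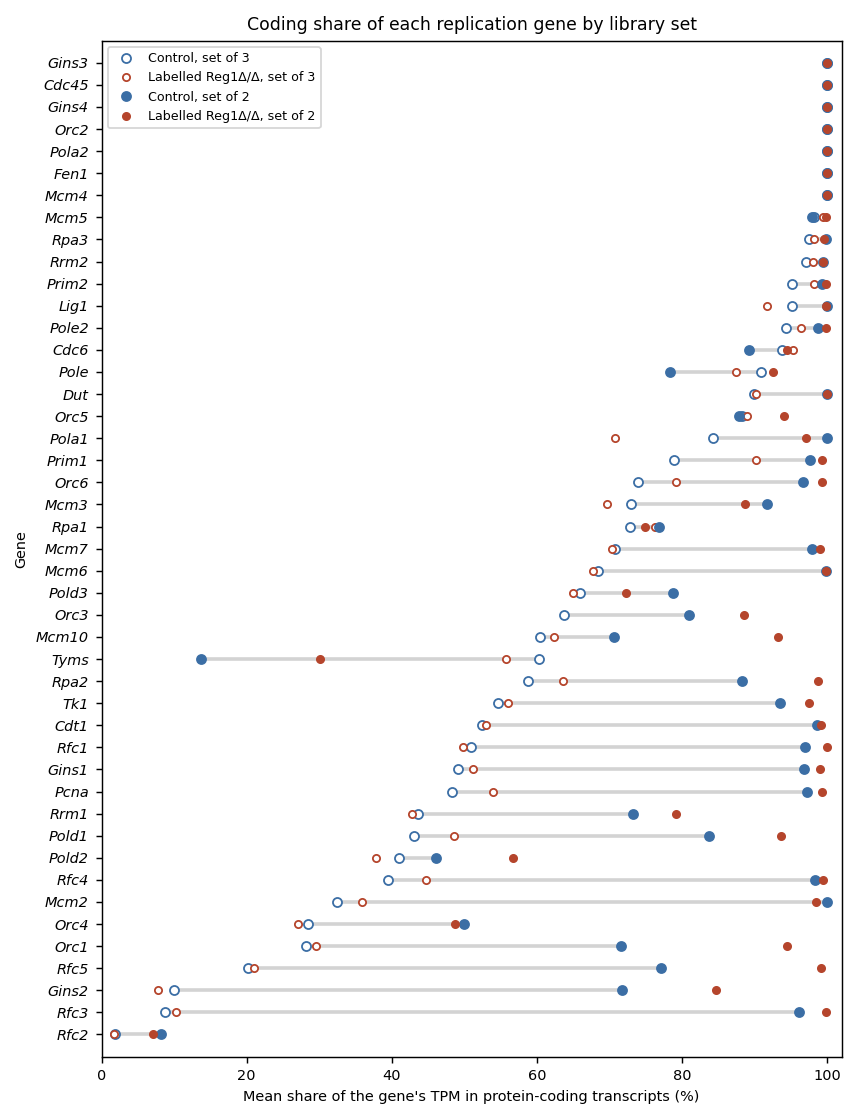
Mean share of each member's TPM that lay in protein-coding transcripts, in percent. Open circles are the set of 3 and filled circles the set of 2, blue for controls and red for libraries labelled Reg1Δ/Δ, and the grey line joins the controls of both sets. The controls of the sets lie over 20 points apart for 19 of the 45 members and within 10 points for 18, while the genotypes lie over 20 points apart for 0 members in the set of 3 and 3 in the set of 2.

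Mcm2 shows how far this reached. A 273-base transcript annotated for nonsense-mediated decay had 217, 166 and 212 TPM in the controls of the set of 3 and 0 in both controls of the set of 2. The 3371-base coding transcript had 113, 86.3 and 101 TPM in the controls and 107, 119 and 138 TPM in the libraries labelled Reg1Δ/Δ of the set of 3. Its values in the set of 2 were 112 and 118 TPM against 179 and 162 TPM. The coding transcript thus had a like control level in both sets, and the short one made up the difference of the sums. On the longest coding transcript alone, which was chosen after the values were seen, Mcm2 was called (0.39, limma FDR = 0.0202).

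For Orc1, the ORC subunit that comes and goes with the cycle, a short transcript differed between the sets as well. A 173-base transcript without coding sequence had 2.25, 13.8 and 44.2 TPM in the controls of the set of 3 and 0 in those of the set of 2. The 3014-base coding transcript had 6.43, 5.41 and 7.41 TPM in the controls and 12.7, 13.4 and 14.6 TPM in the libraries labelled Reg1Δ/Δ of the set of 3. In the set of 2, Orc1 had 8.33 and 11.9 TPM of this transcript against 19.5 and 17.3 TPM. The groups did not overlap, and on this transcript the log2 fold change was 0.92 (limma FDR = 0.000162). Unlike for Mcm2, the controls of the set of 2 lay above those of the set of 3 on it. For Rfc5, the 2796-base coding transcript averaged 33.5 against 55.7 TPM in the set of 3 and 43.7 against 63.2 TPM in the set of 2, and its log2 fold change was 0.65 (limma FDR = 0.00159).

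Counted on the longest coding transcript of each gene, 42 members passed the filter on low values, 20 were higher and 1, Rfc1, was lower (-0.49, limma FDR = 0.0366). Of all genes so counted 18.2% were higher and 34.1% lower. Of the 23 members called on the sums, 17 were called again. The longest coding transcript of Fen1 averaged 0.473 TPM in the controls of the set of 3 and did not pass the filter, and Mcm6 (0.01), Orc6 (0.02), Rfc4 (0.03), Mcm5 (0.20) and Pole2 (-0.13) were not called on that transcript.

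Further genes of the pathway were read from lists of 72 genes, of which 28 were higher and 14 lower, with a median log2 fold change of 0.24. Of all genes tested, 15.0% were higher and 37.9% lower, with a median of -0.25. The split of the lists was 39 to 7 after quantile normalization, where that of all genes was 3861 to 2636, and 46 to 11 after median-of-ratios scaling, where it was 3973 to 3425. Of 25 fork and firing factors, 11 were higher and 2 were lower. Donson, a factor of helicase assembly, had the largest rise (0.86, limma FDR = 0.00124), from 8.77 to 13.7 TPM over the controls to 18.2 to 25.2 TPM over the libraries labelled Reg1Δ/Δ. Pold4, the smallest subunit of polymerase delta, had the largest fall. It had 24.1 to 27.4 TPM against 8.64 to 9.40 TPM in the set of 3, and 42.0 and 53.3 TPM against 14.1 and 14.0 TPM in the set of 2 (log2 fold change -1.54, limma FDR = 2.85e-06). The other lower factor was Mcm9 (limma FDR = 0.0401), a helicase of homologous recombination. Its groups overlapped, its log2 fold change was -0.08 in the set of 2, and its call was lost with quantile normalization, median-of-ratios scaling and the replicate block (limma FDR = 0.208, 0.126 and 0.0953). The 8 genes that rebuild chromatin behind the fork gave 4 higher (Asf1a, Nasp, Chaf1a and Chaf1b) and none lower by limma, also at an unadjusted p under 0.05. Asf1a, a histone chaperone, rose most (0.62, limma FDR = 0.00254). Chaf1b (limma FDR = 0.0493) lost its call with the replicate block and on the longest coding transcript (limma FDR = 0.0604 and 0.0990). Nasp was at 0.03 on the longest coding transcript (limma FDR = 0.932).

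The de novo synthesis of purines and pyrimidines, which feeds ribonucleotides to the reductase, had 8 of 16 genes higher and 2 lower, where 15.0% and 37.9% of all genes were. Ppat, the first committed enzyme of purine synthesis, rose from 27.8 to 47.0 TPM over the controls to 62.8 to 93.4 TPM over the libraries labelled Reg1Δ/Δ (log2 fold change 0.88, limma FDR = 0.000281). Impdh1, an isoform of the enzyme that leads to guanine nucleotides, fell from 73.3 to 159.6 TPM to 24.8 to 47.4 TPM (-1.61, limma FDR = 9.69e-06). Its isoform Impdh2 was higher (0.56, limma FDR = 0.00291). The other lower gene was Prps2 (-0.60), and its isoform Prps1 was higher (0.46).

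Of 10 further deoxynucleotide genes outside the members, 2 were higher (Nme1 and Samhd1) and 5 lower (Rrm2b, Shmt1, Dguok, Dck and Tk2), against 15.0% and 37.9% of all genes. Nme1, a nucleoside diphosphate kinase, had 327, 236 and 363 TPM against 652, 585 and 672 TPM in the set of 3, and 126 and 112 TPM against 284 and 223 TPM in the set of 2 (1.07, limma FDR = 0.00015). Samhd1 degrades deoxynucleotides and was higher as well (1.05, limma FDR = 0.000284). Rrm2b is the small subunit of ribonucleotide reductase that serves cells outside S phase. It had 7.89, 9.55 and 10.2 TPM against 2.52, 1.77 and 4.41 TPM in the set of 3, and 8.86 and 12.5 TPM against 5.56 and 2.21 TPM in the set of 2. Rrm2b was lower without overlap in either set (log2 fold change -1.39, limma FDR = 0.000827, or -0.65 after quantile normalization), where its S-phase counterpart Rrm2 rose. The mitochondrial salvage kinases Dguok and Tk2 were lower (-0.87 and -0.61), although Tk2 was at 0.09 when only protein-coding transcripts were used. Under quantile normalization the lower calls of Tk2 and Dck were lost (limma FDR = 0.0764 and 0.184), and Dck lost it under median-of-ratios scaling as well (limma FDR = 0.292).

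Of the 13 E2F and pocket protein genes, 3 were higher (E2f4, E2f8 and Tfdp1) and 5 lower (Rbl2, E2f5, E2f2, E2f7 and Tfdp2), where 15.0% and 37.9% of all genes were, so that the share that was lower lay near the background. On the longest coding transcript E2f8 and Tfdp1 lost their call (limma FDR = 0.0898 and 0.127). E2f8 lost it with the replicate block as well (limma FDR = 0.0562). After quantile normalization Rbl2 alone of the 5 was still called lower, with E2f7 at 0.01, E2f5 at -0.28, E2f2 at -0.37 and Tfdp2 at -0.25, and 6 of the 13 were higher, with E2f1, E2f3 and E2f6 added. Median-of-ratios scaling called 5 higher, with E2f1 and E2f6 added, and 4 lower, without Tfdp2. Over all genes, quantile normalization called 3861 higher and 2636 lower, and median-of-ratios scaling 3973 and 3425. The 15.0% and 37.9% are thus not the background of these counts. E2f4, a factor that works mainly with pocket proteins as a repressor, had 65.2, 48.2 and 75.7 TPM against 93.1, 101 and 147 TPM in the set of 3 and 98.9 and 108 TPM against 201 and 189 TPM in the set of 2 (0.87, limma FDR = 0.00143). Rbl2, which encodes the pocket protein p130 of resting cells, had 35.3, 25.1 and 27.8 TPM against 8.99, 9.77 and 12.2 TPM, and 19.9 and 25.8 TPM against 12.2 and 12.4 TPM. It fell without overlap (-1.19, limma FDR = 0.000216). E2f1, an activator of replication genes, was not called (0.14, limma FDR = 0.528), but was higher after quantile normalization (0.55, limma FDR = 0.0166) and median-of-ratios scaling (0.48, limma FDR = 0.02).

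**Figure D4:**
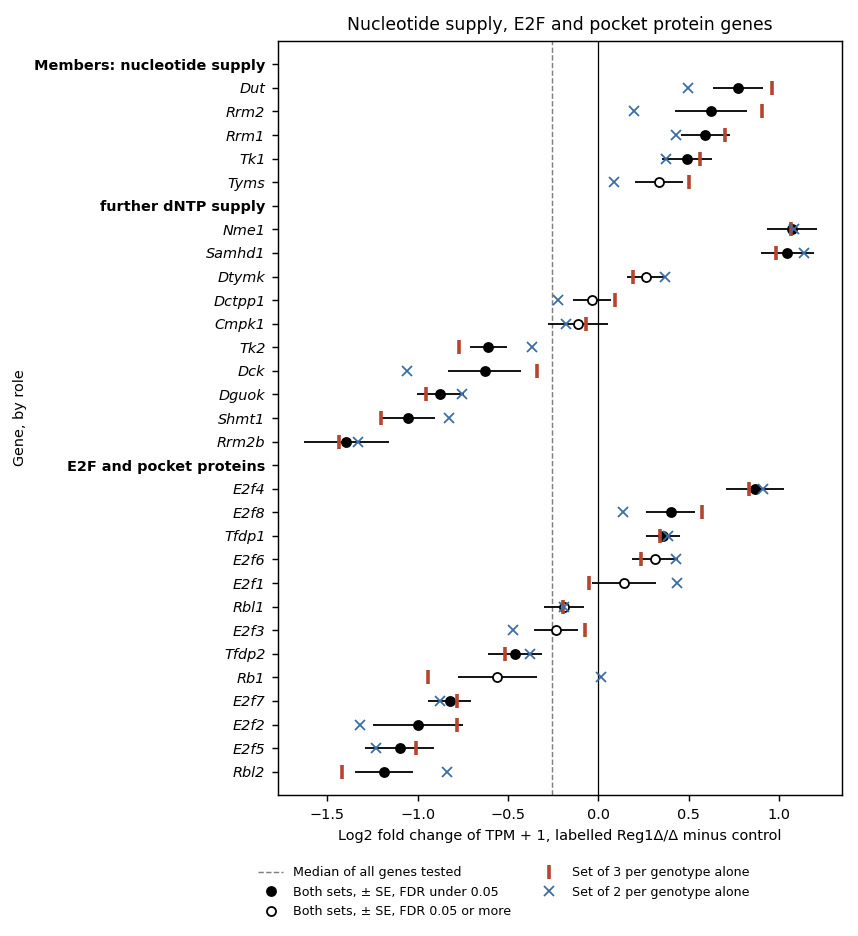
Log2 fold change of TPM + 1 (labelled Reg1Δ/Δ minus control) of the 5 nucleotide supply members, the 10 further deoxynucleotide genes and the 13 E2F and pocket protein genes. Symbols are as in the plot of all members by role. The 5 members lie above 0, while the other lists spread from -1.39 to 1.07 and from -1.19 to 0.87.

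The libraries of the genotypes differed in more than these genes. Genes at 1 TPM or more numbered 14276 to 14307 in the controls and 12006 to 12048 in the libraries labelled Reg1Δ/Δ of the set of 3, and 13366 to 13717 against 11256 to 11398 in the set of 2 (exact permutation test within sets, two-sided, p = 0.0167, the smallest that 120 assignments allow). Protein-coding transcripts held 46.7% of all TPM in the controls of the set of 3 and 78.3% in those of the set of 2. In the libraries labelled Reg1Δ/Δ they held 48.6% and 77.3%. The groups did not overlap in the set of 3 (46.2 to 47.5% against 48.2 to 49.1%) and overlapped in the set of 2 (78.3% in both controls against 73.5 and 81.1%), and over both sets the exact permutation p, two-sided, was 0.883.

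Markers of other cells moved with the genotype labels. All 8 tested of 9 B lineage markers were lower, and their sum was 182 to 1571 TPM in the controls and 2.75 to 23.9 TPM in the libraries labelled Reg1Δ/Δ. Of 9 neutrophil and promyelocyte markers 6 were lower (sum 3214 to 13201 TPM against 341 to 1068 TPM), as were the 4 tested of 5 megakaryocyte markers (sum 93.6 to 455 TPM against 19.1 to 98.8 TPM). Mpo, Elane and Ctsg were not called over both sets. Their log2 fold changes were -2.95, -2.52 and -2.45 in the set of 3 and 0.01, 0.16 and 0.17 in the set of 2. Of all genes tested, 15.0% were higher and 37.9% lower. Of 9 erythroid markers, the 4 globin genes were lower and Klf1, Car1, Epor and Tfrc were higher (1.80, 2.24, 1.44 and 2.07). The sum of the erythroid markers was 3401 to 8377 TPM against 7378 to 9269 TPM. The T and NK markers summed to 75.5 to 282 TPM against 36.5 to 144 TPM and those of macrophages and dendritic cells to 5.85 to 29.7 TPM against 0.580 to 1.72 TPM, and each list had 2 of 6 tested, both lower. Only Cd209a was at 0 in all libraries labelled Reg1Δ/Δ. Of the sorting markers, Kit fell by 1.39 while Cd34 and Flt3, by which the gate excludes cells, fell by 3.02 and 2.85 on the log2 scale, and Ly6a was not called (0.92). The part of these shifts in the rise of the members was not tested.

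Genes of G2 and mitosis gave 4 of 8 higher (Plk1, Aurkb, Ccnb1 and Ccnb2), where 15.0% of all genes were, with a median log2 fold change of 0.37. Ccnb1 lost its call after quantile normalization (limma FDR = 0.0869), with the replicate block (0.0528) and on the longest coding transcript (0.158), and median-of-ratios scaling also called Cdk1 and Bub1. Mki67, which marks cycling cells, and Top2a, the topoisomerase of late S phase and mitosis, were not called at -0.39 and -0.14 (limma FDR = 0.101 and 0.399). These values depended on the scaling, with Mki67 at -0.06 and Top2a at 0.21 after median-of-ratios scaling and at -0.01 and -0.15 after quantile normalization.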

How the data were processed

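RNA of CD34- HSCs was measured in 10 libraries, 5 per genotype, grouped by their labels. By the methods and the submitters' processing notes, the authors mapped reads to GRCm38 (mm10) with STAR, estimated TPM with Salmon 0.9.1, and deposited log2(TPM + 1) for 95912 transcripts per library. The log was undone, the pseudocount of 1 taken off, and the TPM of all transcripts of a gene added. The 12874 genes that reached 1 TPM in 5 or more libraries entered a linear model of log2(TPM + 1) with moderated variances (limma 3.58.1, R 4.3.3), with the library set as a term and Benjamini-Hochberg adjustment at 0.05. A pseudocount of 1 understates the change of low genes, and because each library has the same total, genes that rise push others down. Since TPM keeps no read numbers, count tests and counting intervals were not used. Tables, promoter searches and plots were made in Python 3.11.15. The fits were tested on simulated data.

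Members and lists were chosen with earlier results of these data known, so no list was tested and none was given a p. Values in every library are given for the 8 called members with the largest rise and no overlap in either set, Rrm2 among them, and for Pcna, Mcm2 and Tyms. Gins2 was added after its values were seen. The largest called rise and fall of each further list are named too. Other list genes, and the members and transcripts described by transcript, were named after their values were seen. Of the listed pathway genes, 1 is not reported here. Gene positions are from GENCODE M21 on GRCm38, and promoters from RefSeq. The second file labelled Reg1Δ/Δ with an LT-HSC title carried the name of the first in its header. Its values differed, and it was used as recorded for its sample. The highest correlation of any pair of libraries was 0.975, and none repeated another.

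The alternatives were the filter, a pseudocount of 0.1, no set term, each set alone, quantile normalization, median-of-ratios scaling, protein-coding transcripts rescaled, a trend in eBayes, a replicate block and each library left out. Coding transcripts without rescaling and the longest coding transcript were added after seeing the data.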

Additional observations from a re-analysis of the deposited data

Results flagged for a closer look

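Gins2, a subunit of the GINS complex, had values in opposite directions in the sets, called in neither alone. Every library labelled Reg1Δ/Δ was above the controls in the set of 3 and below them in the set of 2, and the effect in the set of 2 minus that in the set of 3 was -0.95 on the log2 scale (limma interaction FDR = 0.173, over all genes). Its 3900-base coding transcript averaged 5.66 and 5.67 TPM in the controls and the libraries labelled Reg1Δ/Δ of the set of 3, and 36.1 and 28.5 TPM in the set of 2. Retained-intron transcripts held a mean of 71.9% and 71.8% of the Gins2 sum in the set of 3 and 15.4% and 8.69% in the set of 2. The sums of the sets thus consisted of different transcripts.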

How the results depend on the processing

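Of the 23 members called higher, 13 were called in every fit without 1 library, in which 13 to 22 members were higher and 0 to 1 lower. The median of the members ranged from 0.28 to 0.35 and its distance from that of all genes from 0.53 to 0.60, with 22 to 28 further pathway genes higher and 11 to 16 lower. Median-of-ratios scaling gave 39 members higher, a member median of 0.68 and 46 pathway genes higher, no set term gave 9 members and 9 pathway genes higher and 7 lower, and quantile normalization 7 pathway genes lower. The set of 2 alone gave 1 member higher and 4 pathway genes higher and 5 lower. In 1 member, Rfc1, the call was lower with the filter set to 1 TPM in all libraries, with a trend, in the set of 3 alone and on the longest coding transcript. The distance of the medians was 0.37 in the set of 2 alone, 0.36 on the longest coding transcript, 0.40 without a filter and 0.25 after quantile normalization. The median of all genes turned to 0.0499 with median-of-ratios and 0.14 with quantile scaling. The causes were not tested.

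Signs are given for all members and for the further pathway genes that were called, not for those that were not. Among the 23 called members, the sign turned for Pole2 alone, at -0.13 on the longest coding transcript. With median-of-ratios scaling it turned for Orc3 (0.25), Pola1 (0.22), Pold1 (0.24), Rfc1 (0.000141) and Rfc2 (0.25), and with quantile normalization for Pcna (-0.11), Pola1 (0.30) and E2f7 (0.0117). With protein-coding transcripts rescaled and not rescaled, values were -0.15 and -0.13 for Gins2, 0.13 and 0.16 for Orc3, 0.0289 and 0.0539 for Pold1, and 0.0930 and 0.12 for Tk2. On the longest coding transcript they were -0.13 for Gins2, -0.0458 for Gins3, -0.17 for Orc4, 0.0469 for Pold1 and 0.0136 for Tk2. The set of 2 alone gave -0.57 for Gins2, -0.0918 for Gins3, -0.14 for Pcna, 0.0577 for Pola1 and -0.0834 for Rfc3, and the set of 3 alone -0.14 for Pole. Gins2 was at -0.00158 with a pseudocount of 0.1 and between -0.11 and 0.15 without 1 library. Without 1 library, Pcna lay between -0.0360 and 0.0972, Pola1 between -0.19 and 0.00968, Pole between -0.0344 and 0.22, and Rfc3 between -0.0148 and 0.13.

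The labels number the replicates but do not say that the numbers pair the mice. Deviations of libraries with the same number correlated at 0.03, 0.18 and 0.07 in the set of 3 and -0.05 in the set of 2, so the numbers were taken as names. With the replicate number as a block, 20 members were higher and none was lower by limma, and 18 of these were among the 23, which lost Mcm6, Mcm7, Prim1, Pold2 and Rpa2. The block left 25 pathway genes higher and 13 lower. TPM gives no read numbers, so what depth limits could not be assessed.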

Other observations

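The control levels of single members differed between the sets. Orc4 averaged 143 TPM in the controls of the set of 3 and 14.6 TPM in those of the set of 2, and its 4066-base coding transcript averaged 4.98 and 4.40 TPM. The ratio was above 2 for 5 members (Orc4, Rfc5, Mcm4, Mcm2 and Orc1) and under 0.5 for 1, Dut, at 0.403. The 3589-base coding transcript of Mcm4 had 65.9, 59.2 and 60.2 TPM in the controls and 64.7, 66.9 and 81.0 TPM in the libraries labelled Reg1Δ/Δ of the set of 3, and 81.0 and 88.4 TPM against 113 and 101 TPM in the set of 2. The 1518-base coding transcript of Pcna averaged 139.8 against 175 TPM in the set of 3 and 457 against 425 TPM in the set of 2.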
